A study of Homo sapiens with 12 samples.

Results

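The EGR and NR4A genes encode immediate response transcription factors, and 6 of them, EGR1, EGR2, EGR3, NR4A1, NR4A2 and NR4A3, were followed across the 12 RNA-Seq libraries of the study. They were chosen by symbol and make up 6 of the 26210 gene entries of the deposited expression table, each symbol occurring once. The libraries came from 6 conditions with 2 libraries each. L428, L1236 and KM-H2 are classical Hodgkin lymphoma (cHL) cell lines and serve as models of Hodgkin and Reed-Sternberg (HRS) cells. Namalwa is a Burkitt's lymphoma line and Reh a pro-B lymphoblastic leukaemia line, and both represent non-Hodgkin B cells. These 5 lines were untreated, and Reh was also treated with phorbol myristate acetate (PMA), an activator of protein kinase C, at 2 ng/ml. The labels do not give how long the treated Reh cells had been exposed before RNA was taken, and the study describes PMA treatments of several hours. Each condition is 1 established line, and nothing states that the paired libraries came from separate cultures, so p-values measure only the spread between these libraries. The comparisons address how the cHL lines differ from the control B-cell lines, and what an inflammatory stimulus changes in Reh.

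EGR proteins are zinc finger factors that bind GC-rich sites, and NR4A proteins are orphan nuclear receptors that act without a classical ligand. In lymphocytes both families are switched on within minutes of antigen receptor, growth factor or phorbol ester signalling, through serum response factor (SRF) with its ternary complex partners of the ELK family, through CREB and through MEF2 factors. Their transcripts are short-lived. NAB1 and NAB2 are corepressors of EGR proteins, and EGR proteins also switch on NAB2.

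Expression was measured as FPKM, fragments scaled to transcript length and to the number of mapped fragments, so levels can be compared between genes. Part of the low FPKM values of a library fell on evenly spaced steps, which would be single fragments if reads were counted whole. In 10 libraries set against PMA-treated Reh library 1, 48.8% to 63.6% of the ratios of low values lay within 1% of a step, and in L1236 library 1 34.0% did. Taken as an estimate, the libraries differed in depth by 6.04-fold, from KM-H2 library 0 to L1236 library 1, where the numbers 0 and 1 are those ending the column names. For EGR1, 1 step was worth 0.0147 to 0.0891 FPKM, and 9 of its 10 untreated values lay within 0.1 of a whole step. It was 7 of 10 for NR4A2, 6 of 10 for EGR2 and for EGR3, 5 of 10 for NR4A3 and 1 of 10 for NR4A1. The step of each gene was set by its own smallest non-zero value relative to depth, and values of 0 counted as whole. These matches were therefore partly fixed in advance. Most of the EGR3 matches are values of 0, and the NR4A1 match is the value that set its step. Steps are rough guides for these genes and are not quoted for NR4A1. The correlation of log2(FPKM + 1) between the paired libraries was 0.985 for Reh, 0.969 for PMA-treated Reh, 0.977 for Namalwa, and 0.906, 0.919 and 0.922 for L428, L1236 and KM-H2. The summed FPKM of 7 B-cell markers was 921 to 1413 in Reh, PMA-treated Reh and Namalwa and 2.56 to 55.0 in the cHL lines, although single markers differed between untreated and PMA-treated Reh. The HRS cell marker TNFRSF8 (CD30) was at 19.1 to 63.7 FPKM in the 6 cHL libraries and at 0.0178 to 0.505 FPKM in the other 6.

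The promoters of EGR1, EGR2 and NR4A3 are shown because they carry the response elements through which these genes are known to be switched on. Windows of 250 bases before to 50 after a start site were taken from RefSeq, and 7 windows of 4 of the genes matched the GRCh37 genome exactly. Capitals mark the CArG box, the SRF site, and the core of the cyclic AMP response element (CRE), TGACG on either strand and therefore also read as CGTCA. The stretches end before the annotated transcript start and read 5′ to 3′ on the strand of the gene. The EGR1 stretch is chr5:137800918-137801167 on the plus strand, the EGR2 stretch chr10:64576127-64576376 on the minus strand and the NR4A3 stretch chr9:102583917-102584136 on the plus strand.
EGR1: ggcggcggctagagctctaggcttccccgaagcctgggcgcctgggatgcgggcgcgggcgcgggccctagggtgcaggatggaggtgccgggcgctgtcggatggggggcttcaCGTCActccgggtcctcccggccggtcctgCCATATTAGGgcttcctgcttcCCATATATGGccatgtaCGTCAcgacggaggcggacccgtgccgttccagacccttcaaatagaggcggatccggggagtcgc
EGR2: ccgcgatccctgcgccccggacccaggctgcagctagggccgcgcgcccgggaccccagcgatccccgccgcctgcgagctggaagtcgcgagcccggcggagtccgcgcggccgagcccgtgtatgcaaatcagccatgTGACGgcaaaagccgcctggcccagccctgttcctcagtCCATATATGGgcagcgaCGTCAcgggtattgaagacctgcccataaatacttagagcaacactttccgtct
NR4A3: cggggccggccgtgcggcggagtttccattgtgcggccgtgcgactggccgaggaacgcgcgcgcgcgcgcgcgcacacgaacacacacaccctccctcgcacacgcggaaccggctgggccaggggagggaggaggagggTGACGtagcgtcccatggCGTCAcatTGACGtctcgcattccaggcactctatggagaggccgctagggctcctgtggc

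The EGR1 window held 2 CArG boxes, beginning 105 and 83 bases before the start, and 2 CRE cores. One EGR2 window held 1 CArG box, beginning 71 bases before its start, flanked by 2 CRE cores. This EGR2 start lies 2801 bases downstream of the outermost annotated start of the gene, and the other 2 EGR2 windows held no match. The NR4A3 window held 4 CRE cores and no CArG box, and 3 of the cores are in the stretch printed above. Both NR4A1 windows lacked every motif searched. Their starts lie 0 and 14883 bases from the outermost annotated start of NR4A1, a gene with 22 annotated transcripts. The 2 windows therefore need not cover every promoter of NR4A1. Across 35116 RefSeq windows of the same length, 1.29% held a CArG box and 24.6% a CRE core. The other motifs searched on both strands were the full CRE TGACGTCA (1.85% of windows), which contains the core, the AP-1 site TGACTCA or TGAGTCA (4.95%), the EGR site GCGTGGGCG or GCGGGGGCG (5.77%) and the NR4A site AAAGGTCA (1.22%). None of these 4 occurred in the 7 windows. A match describes letters in the window, and binding was not measured here.

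**Figure D1:**
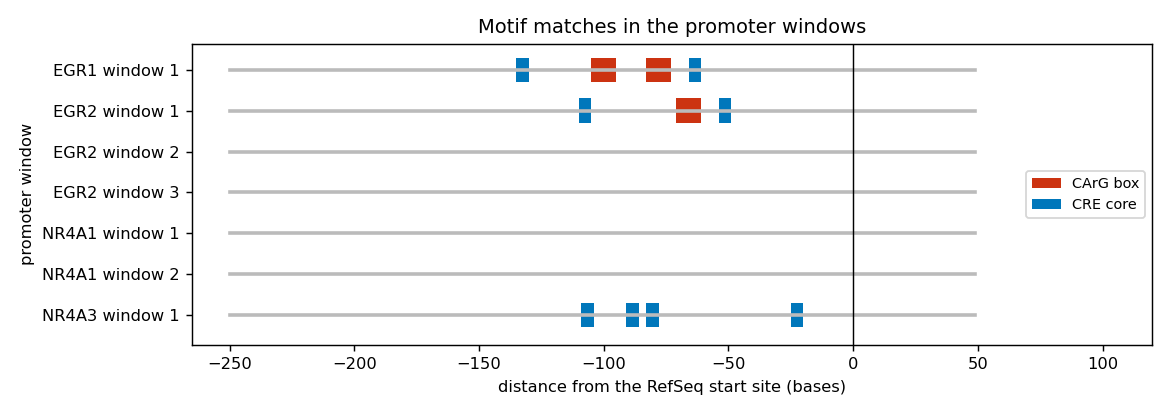
Positions of CArG boxes (red) and CRE cores (blue) in the 7 promoter windows, with the distance from the RefSeq start site in bases on the horizontal axis and 1 window per line. CArG boxes occur in EGR1 (2) and in 1 EGR2 window (1), and the NR4A3 window has 4 CRE cores.

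PMA treatment raised the RNA of EGR1, EGR2, EGR3 and NR4A1 in Reh cells from below 1 FPKM to means of 26.0 FPKM or more, whereas NR4A2 and NR4A3 stayed below 1 FPKM. NR4A2 and NR4A3 were still higher in each treated than in each untreated Reh library, with ratios of mean FPKM of 9.96 and 21.6. These 2 ratios rest on few fragments in untreated Reh, and neither difference passed an adjusted p of 0.05 with limma. EGR2 reached the highest mean level, 80.8 ± 6.76 FPKM (SD, n = 2 libraries), followed by EGR1 at 69.2 ± 10.0, NR4A1 at 49.5 ± 21.4 and EGR3 at 26.0 ± 4.92 FPKM. In treated library 1 EGR1 (76.2 FPKM) and EGR2 (76.0 FPKM) were level. Of the 5 members that entered the limma test on log2(FPKM + 1), 4 passed an adjusted p (Benjamini-Hochberg) of 0.05, all higher with PMA. Among all 14679 genes tested the share called was 31.8%, with 14.7% higher and 17.2% lower. EGR3 is not independent in this count, because it entered the test through the treated libraries alone. In bulk RNA a change in RNA per cell and a change in the share of cells that hold it cannot be told apart.

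**Figure D2:**
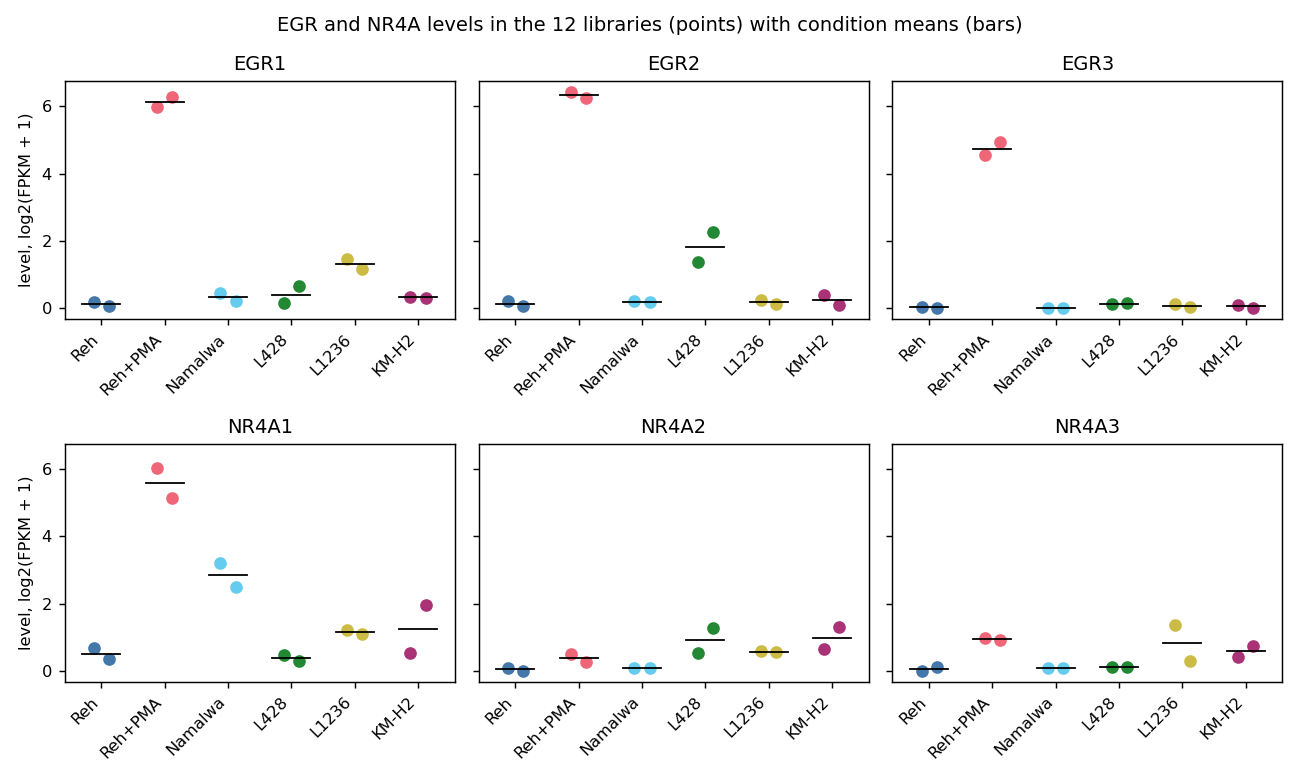
Levels of the 6 genes as log2(FPKM + 1), with 1 panel per gene, 1 point per library and a bar at the mean of each condition. EGR1, EGR2, EGR3 and NR4A1 are highest in PMA-treated Reh, while NR4A2 is highest in KM-H2 and L428.

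EGR1, the zinc finger factor used most often as a readout of immediate signalling, lies at chr5:137801168-137804992 on the plus strand. Its level was 0.138 and 0.0349 FPKM in Reh libraries 0 and 1, and 62.1 and 76.2 FPKM in PMA-treated Reh. In Namalwa it was 0.378 and 0.156 FPKM. The treated libraries stood far above all others, and the remaining conditions were within a few FPKM of 0. L428 had 0.0985 and 0.577 FPKM, L1236 1.73 and 1.24 FPKM, and KM-H2 0.268 and 0.235 FPKM. L1236 was thus the highest untreated line, with both libraries above every other untreated library. On the step scale the Reh values correspond to 4 and 1 fragments and the treated values to about 2850 and 3703, so the ratio of the mean FPKM, 802, has an imprecise denominator, and ratios between single libraries ran from 451 to 2185. The fitted difference between PMA-treated and untreated Reh was 6.01 ± 0.22 (SE) on the log2(FPKM + 1) scale (limma, adjusted p = 7.11e-07).

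Among the untreated lines EGR1 was higher in L1236 than in Reh by 1.19 ± 0.22 on the log2 scale (limma, adjusted p = 0.00223) and higher than in Namalwa by 0.97 (adjusted p = 0.00731). It was also higher in L1236 than in KM-H2 (KM-H2 minus L1236 -0.98, limma adjusted p = 0.00743) and L428 (L428 minus L1236 -0.91, adjusted p = 0.0133). In the order of mean levels, PMA-treated Reh was followed by L1236, L428, Namalwa, KM-H2 and Reh, and the neighbours from L428 downwards did not differ past the threshold. The call against Namalwa was lost without L1236 library 0 (limma, adjusted p = 0.0527) and without Namalwa library 1 (0.0594), and the call against KM-H2 without L1236 library 0 (0.0542). The call against L428 was lost without L428 library 0 (limma, adjusted p = 0.0825) or L1236 library 0 (0.0936). With quantile normalization L1236 exceeded Namalwa by 0.62 (limma, adjusted p = 0.0677).

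EGR2, best known in lymphocytes for restraining T cells and shaping B-cell maturation, lies at chr10:64571756-64578927 on the minus strand. Its level was 0.155 and 0.0394 FPKM in Reh, and 85.6 and 76.0 FPKM with PMA. L428 had 1.58 and 3.80 FPKM. Both L428 libraries were above every other untreated library, and library 1 was well above library 0. Namalwa had 0.145 and 0.132 FPKM, L1236 0.189 and 0.0937 FPKM, and KM-H2 0.302 and 0.0661 FPKM. These conditions overlapped with Reh. The PMA difference was 6.22 ± 0.27 on the log2 scale (limma, adjusted p = 1.74e-06), and the ratio of mean FPKM was 829, with single-library ratios of 489 to 2169, again over 4 and 1 steps in Reh.

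L428 exceeded Reh in EGR2 by 1.68 ± 0.27 on the log2 scale (limma, adjusted p = 0.000937), Namalwa by 1.63 (0.00123) and L1236 by 1.63 (0.0018). KM-H2 minus L428 was -1.58 (limma, adjusted p = 0.0017). Below PMA-treated Reh and L428, the order of mean levels was KM-H2, L1236, Namalwa and Reh, and no neighbours in that stretch differed past the threshold. PMA-treated Reh was above L428 by 4.53 (limma, adjusted p = 1.64e-06). The higher EGR2 level of L428 over Reh and Namalwa passed the threshold in each of the 18 alternatives run, including those without either L428 library.

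EGR3, a relative that shares target sites with EGR1 and EGR2, lies at chr8:22545172-22550993 on the minus strand. Its level was 0.0245 and 0 FPKM in Reh and 22.6 and 29.5 FPKM with PMA. All other libraries were at 0.107 FPKM or below, and both Namalwa libraries were listed at 0. The difference with PMA was 4.73 ± 0.15 on the log2 scale (limma, adjusted p = 5.18e-07). EGR3 passed the filter on low values, at least 1 FPKM in at least 2 libraries, through the 2 treated libraries alone, so it had to differ there, and without either of them it was not tested. No difference between untreated lines was called for EGR3 (limma, unadjusted p of at least 0.424), and with at most 6 steps per untreated library small differences were not detectable at this depth.

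NR4A1 (Nur77), the nuclear receptor used as a reporter of antigen receptor signalling, lies at chr12:52416616-52453291 on the plus strand. Its level was 0.605 and 0.264 FPKM in Reh, and 64.6 and 34.3 FPKM with PMA. Namalwa had 8.15 and 4.59 FPKM. Every treated library was above every other library, and both Namalwa libraries were above those of the remaining untreated lines. L428 had 0.371 and 0.221 FPKM, L1236 1.33 and 1.13 FPKM, and KM-H2 0.449 and 2.87 FPKM. The KM-H2 libraries were far apart and spanned the L1236 values. The PMA difference was 5.08 ± 0.47 on the log2 scale (limma, adjusted p = 9.48e-05), and the ratio of mean FPKM was 114, with single-library ratios of 56.7 to 245.

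Namalwa exceeded Reh in NR4A1 by 2.33 ± 0.47 on the log2 scale (limma, adjusted p = 0.00545). The cHL lines were lower than Namalwa, with L428 minus Namalwa at -2.47 (limma, adjusted p = 0.00256), L1236 minus Namalwa at -1.68 (0.0185) and KM-H2 minus Namalwa at -1.59 (0.023). None of the 3 differed from Reh past the threshold. In the order of means PMA-treated Reh led, followed by Namalwa, KM-H2, L1236, Reh and L428, and KM-H2, L1236, Reh and L428 did not differ past the threshold between neighbours. PMA-treated Reh was above Namalwa by 2.75 (limma, adjusted p = 0.00145). The L1236 call was lost without Namalwa library 0 (limma, adjusted p = 0.115), L1236 library 0 (0.0576) or L1236 library 1 (0.0798). The KM-H2 call was lost without Namalwa library 0 (limma, adjusted p = 0.135) or KM-H2 library 0 (0.134, with a difference of -0.89). Without KM-H2 library 0, KM-H2 was above Reh by 1.44 (limma, adjusted p = 0.0264) and above L428 by 1.58 (0.0231).

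NR4A2 (Nurr1), the relative known for its role in dopamine neurons, lies at chr2:157180949-157198860 on the minus strand. Its level was 0.0607 and 0 FPKM in Reh, 0.404 and 0.200 FPKM with PMA, and 0.0606 and 0.0689 FPKM in Namalwa. L428 had 0.435 and 1.44 FPKM, L1236 0.492 and 0.457 FPKM, and KM-H2 0.551 and 1.45 FPKM. The 6 cHL libraries were all above the 4 untreated control libraries, the lowest being 0.435 and the highest control 0.0689 FPKM, and 9.5% of all genes tested showed such a gap in this direction. The treated libraries lay between these ranges. Of the genes followed here NR4A2 alone had its highest mean outside PMA-treated Reh, in the order KM-H2, L428, L1236, PMA-treated Reh, Namalwa and Reh, and no neighbours in that order differed past the threshold. The PMA difference was 0.33 ± 0.27 on the log2 scale, with a 95% interval of -0.27 to 0.94 (limma, adjusted p = 0.389).

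NR4A2 was higher in KM-H2 than in Reh by 0.92 ± 0.27 on the log2 scale (limma, adjusted p = 0.0203) and than in Namalwa by 0.87 (0.0273). It was higher in L428 than in Reh by 0.86 (limma, adjusted p = 0.0288) and than in Namalwa by 0.81 (0.0358). For L1236 the differences were 0.52 against Reh (limma, adjusted p = 0.157) and 0.47 against Namalwa (0.201). NR4A2 passed the filter through 1 KM-H2 and 1 L428 library alone, so it had to be high in these lines, and without library 1 of either line it was not tested. The calls against Reh were lost without Reh library 0 (limma, adjusted p = 0.0909 for L428 and 0.0716 for KM-H2) or library 1 (0.124 and 0.0954). Those against Namalwa were lost without Namalwa library 0 (0.115 and 0.096) or library 1 (0.119 and 0.101), and the L428 call also without Reh library 0 (0.0542) or 1 (0.0543). Without the filter L428 against Namalwa had an adjusted p of 0.0536 (limma). Quantile normalization ended all 4, with limma adjusted p-values of 0.0726 and 0.0821 against Reh and 0.181 and 0.217 against Namalwa. With a pseudocount of 0.1, L1236 was also above Reh, by 2.18 (limma, adjusted p = 0.0155), and above Namalwa, by 1.80 (0.0357).

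NR4A3 (NOR-1), the remaining NR4A receptor, lies at chr9:102584137-102629173 on the plus strand. Its level was 0 and 0.0857 FPKM in Reh, 0.955 and 0.894 FPKM with PMA, and 0.0559 and 0.0479 FPKM in Namalwa. L428 had 0.0802 and 0.0819 FPKM, L1236 1.54 and 0.234 FPKM, and KM-H2 0.339 and 0.683 FPKM. The treated libraries, L1236 and KM-H2 were above Reh, Namalwa and L428, with the L1236 pair far apart. NR4A3 reached 1 FPKM in 1 library only and did not enter the main test. In a limma fit without the filter its PMA difference was 0.88 ± 0.28 on the log2 scale, with an adjusted p of 0.0593 over 21217 genes, of which 21.8% were called. In that fit L1236 exceeded Reh by 0.77 (limma, adjusted p = 0.0785) and KM-H2 exceeded Reh by 0.53 (0.207). By mean level the order was PMA-treated Reh, L1236, KM-H2, L428, Namalwa and Reh, with no neighbours past the threshold.

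The genes that act with the EGR and NR4A factors moved in different directions in PMA-treated Reh. Among the EGR relatives and corepressors 3 of 4 were tested and all 3 were called, 2 higher and 1 lower, beside 14.7% of all genes higher and 17.2% lower. NAB2, the corepressor induced by EGR proteins, rose from 4.18 and 4.04 FPKM to 114 and 95.6 FPKM, a difference of 4.37 ± 0.26 on the log2 scale (limma, adjusted p = 8.79e-06). NAB1 rose from 11.8 and 12.1 FPKM to 34.3 and 37.0 FPKM (limma, adjusted p = 0.000208), and WT1, a zinc finger factor with a related binding site, fell by 0.93 on the log2 scale (0.00547). EGR4 was listed at 0 in both treated libraries and was not tested.

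Of 7 genes reported as EGR targets, 6 were tested with PMA, and 2 were higher and 2 lower, beside the same 14.7% and 17.2% of all genes. NAB2 and TGFB1, a cytokine, rose, the latter by 3.10 (limma, adjusted p = 0.00284). ID3, an inhibitor of E-proteins, fell by 2.04 on the log2 scale (limma, adjusted p = 0.00407). CBLB and DGKA were not called, and FASLG was not tested. The median difference over the 6 was -0.32. Of the retinoid X receptors that pair with NR4A1 and NR4A2, 2 of 3 were tested with limma and 0 were called, with 1 at an unadjusted p under 0.05. RXRA stood at 3.75 and 4.73 FPKM in Reh and 6.61 and 12.6 FPKM with PMA (limma, adjusted p = 0.0857).

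Of the 11 upstream factors, all tested, 4 were higher with PMA and 0 lower, beside 14.7% of all genes higher and 17.2% lower. Their median difference was 0.50. Those called were MEF2A, by 1.40 on the log2 scale (limma, adjusted p = 0.00529), ELK4, by 0.89, SRF, by 0.86 (0.0163), and MEF2C, by 0.79. Among 33 other immediate and early response genes, 31 were tested, 21 were higher, 2 were lower and 8 were not called, beside those same shares. Their median difference was 2.58, beside -0.03 over all genes tested, and the largest were 5.67 for FOSB, 5.30 for SGK1 and 5.26 for KLF6. DUSP1, a phosphatase that shuts off MAP kinases, fell by 2.54 on the log2 scale (limma, adjusted p = 0.0093), and MYC fell by 2.14 (0.00464). EGR2 and EGR1 had larger differences than each of these 31 genes, and NR4A1 and EGR3 stood between KLF6 and FOS. The markers of B-cell precursors summed to 1230 to 1320 FPKM in Reh and 131 to 142 FPKM with PMA (5 of 6 at 1 FPKM or more in both conditions), and those of HRS cells to 24.1 to 25.0 and 288 to 369 FPKM. With PMA most of the HRS sum was ID2, at 246 and 333 FPKM, against 8.48 and 10.3 FPKM in Reh. FSCN1 was at 15.3 and 14.4 FPKM in Reh and 30.4 and 25.4 FPKM with PMA, and CSF1R at 0.285 and 0.202 against 11.8 and 11.2 FPKM, whereas TNFRSF8 was at 0.0178 to 0.0882 FPKM and CCL17 at 0 in these 4 libraries. Among the B-cell markers CD79A was at 336 and 429 FPKM in Reh and 947 and 1102 FPKM with PMA, CD79B at 394 and 414 against 39.0 and 86.2 FPKM, and the B-lineage factors PAX5 at 64.1 and 52.5 against 11.3 and 17.4 FPKM and EBF1 at 82.9 and 66.2 against 24.4 and 15.0 FPKM. The part of these markers in the EGR and NR4A differences was not tested. T-cell markers were at 0 in both treated libraries.

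**Figure D3:**
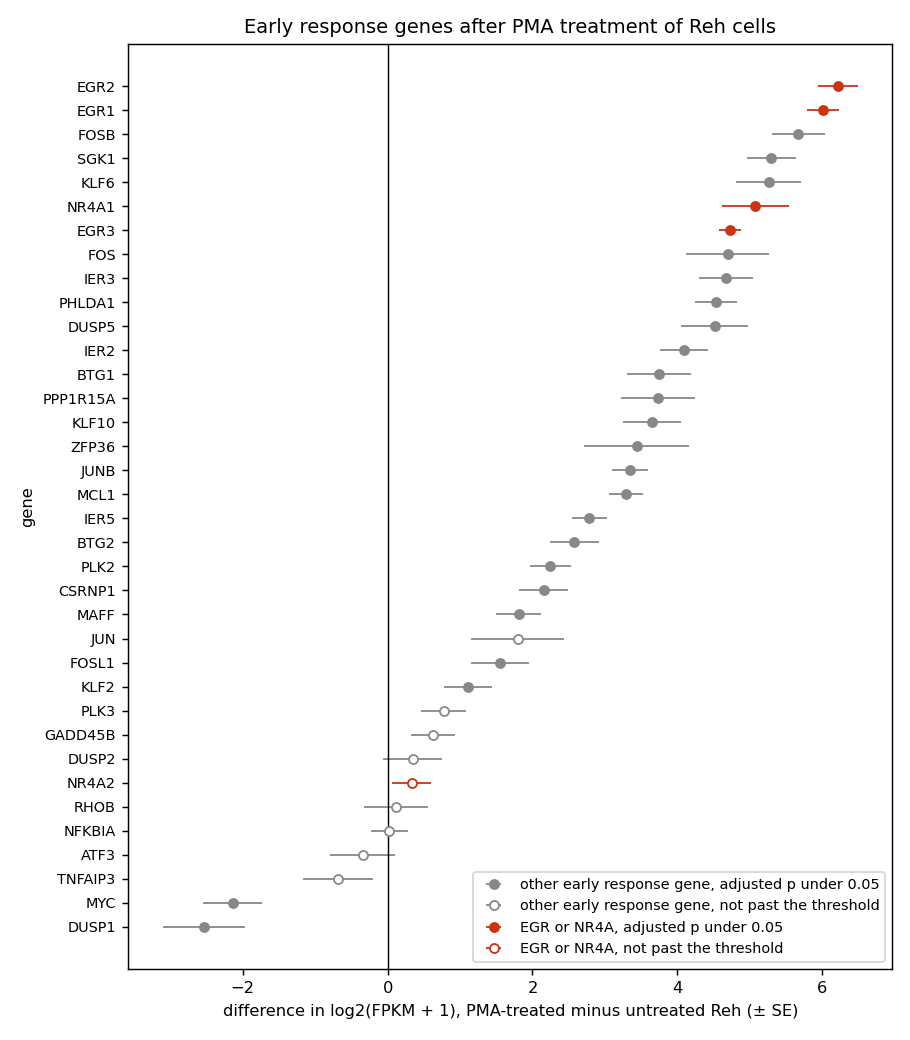
Difference in log2(FPKM + 1) between PMA-treated and untreated Reh for the 5 tested EGR and NR4A genes (red) and the 31 other tested early response genes (grey), with bars of ± SE and filled points for adjusted p under 0.05. EGR2 (6.22) and EGR1 (6.01) head the plot, whereas NR4A2 (0.33) lies among the genes that did not pass the threshold.

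Set against the other lines, PMA-treated Reh had the higher level of EGR1, EGR2, EGR3 and NR4A1 in each case. Against L428, L1236, KM-H2 and Namalwa 4 of 5 tested members were called, beside 48.8%, 47.2%, 52.2% and 41.6% of all genes tested. EGR3 had to be higher in each, since it passed the filter through the treated libraries alone, and these comparisons share those libraries. The difference in NR4A1 was 5.22 against L428, 4.43 against L1236 and 4.35 against KM-H2 on the log2 scale. For NR4A2 the treated cells lay below KM-H2 by a difference of -0.59 (limma, adjusted p = 0.0941) and below L428 by -0.53 (0.135), neither past the threshold.

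The members called higher than in Reh were EGR1 in L1236, EGR2 and NR4A2 in L428 and NR4A2 in KM-H2. The NR4A2 calls ended with quantile normalization or without either Reh library, with the values given above. Against Reh, 2 of 5 tested members were called in L428 (40.8% of all genes tested), 1 in L1236 (40.7%) and 1 in KM-H2 (43.3%), all higher. Against Namalwa the counts were 3 in L428 (41.9%), 2 in L1236 (39.7%) and 2 in KM-H2 (40.6%), and in each line NR4A1 was the member that was lower. NR4A2 is not independent in the L428 and KM-H2 counts, because it entered the test through 1 library of each of these lines alone. The shares of members called were near or below those of all genes, except in L428 against Namalwa, where the count rested on NR4A2. It was 2 there without the filter, with quantile normalization, with a required difference of at least 1, and without either Reh library, either Namalwa library, L428 library 1 or KM-H2 library 1. These comparisons share their control libraries.

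**Figure D4:**
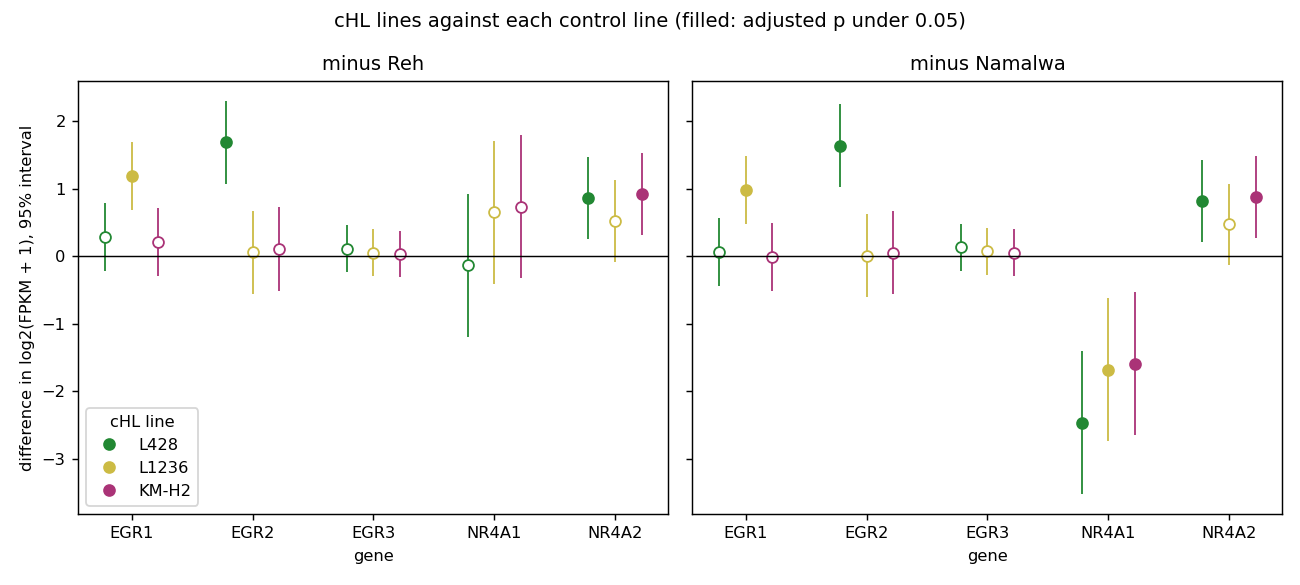
Difference in log2(FPKM + 1) of each cHL line from Reh (left) and Namalwa (right) for the 5 tested genes, with 95% intervals and filled points for adjusted p under 0.05. EGR1 stands out in L1236 (1.19 above Reh), EGR2 in L428 (1.68 above Reh), and NR4A1 is below Namalwa in all 3 lines.

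Between the control lines 1 of 5 tested members, NR4A1, was called (25.1% of all genes tested). Between the cHL lines, 1 was called for KM-H2 against L1236 (36.2%), which was EGR1, 1 for KM-H2 against L428 (36.4%), which was EGR2, and 2 for L428 against L1236 (30.6%), which were both. With the 5 untreated lines as units, 3 cHL against 2 controls, the smallest p that an exact permutation test allows is 0.1. Among the 6 members the difference in mean log2(FPKM + 1) reached that limit for NR4A2 alone, at 0.74 (0.81 ± 0.22 SD in cHL and 0.07 ± 0.03 in controls, exact two-sided p = 0.1). The share of all genes that reach this limit was not computed. Of all genes tested, 9.5% had every cHL library above every untreated control library, as NR4A2 did. The difference was 0.45 for EGR1, 0.59 for EGR2 and -0.75 for NR4A1 (each exact p = 0.5), and 0.07 for EGR3 and 0.44 for NR4A3 (each exact p = 0.2). KM-H2 also carried 17.8 to 26.3 FPKM of summed T-cell markers and 4.81 to 6.38 FPKM of monocyte markers, with all other conditions at or below 0.159 and 0.899 FPKM. The monocyte sum was nearly all CD14 (5.79 and 4.56 FPKM), with FCN1, S100A8 and S100A9 at 0, and the T-cell sum mostly CD3D (13.5 and 22.5 FPKM) and CD3G. Their part in the KM-H2 values was not tested.

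The EGR corepressors also differed between cHL lines. NAB2 was lower in L428 than in L1236 (L428 minus L1236 -1.43, limma adjusted p = 0.00307) and higher in KM-H2 than in L428 by 1.83 (0.000597). NAB1 was lower in KM-H2 than in L1236 (KM-H2 minus L1236 -0.73, limma adjusted p = 0.00571) and L428 (-0.85, 0.00251). NAB2 was higher than in Reh in L1236 by 1.20 on the log2 scale (limma, adjusted p = 0.0053) and in KM-H2 by 1.61 (0.000974), but not past the threshold in L428, the line with the highest untreated EGR2 level (-0.22, adjusted p = 0.544). NAB1 was higher than in Reh in L428 by 0.89 (limma, adjusted p = 0.00168) and in L1236 by 0.76 (0.00385). ID3 was lower than in Reh by more than 3 units in every cHL line, with L428 minus Reh at -5.70 (limma, adjusted p = 3.25e-06). The other early response genes were called higher against Reh in 15 (L428), 12 (L1236) and 15 (KM-H2) of 31 cases and lower in 4, 5 and 5. Among all genes tested 20.6%, 20.6% and 22.2% were called higher and 20.2%, 20.1% and 21.1% lower. The list had medians of 0.84, 0.84 and 0.90 beside 0 for all genes tested.

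The likeness of other genes to a member was described by Pearson's r of log2(FPKM + 1) over the 12 libraries, which share lines and the treatment, among the tested genes that reached 5 FPKM. The nearest genes were CD36 (0.992) and FOSB (0.989) for EGR1, and UPP1 (0.985), LAMA2 (0.983) and S100A2 (0.981) for EGR2. For EGR3 they were TREM1, FLJ16779 and XIRP1, each at 0.999. Like EGR3, these genes were near 0 (0.326 FPKM or below) outside the treated libraries, so r rests on the treated libraries. TREM1, a myeloid receptor, was at 15.4 and 17.3 FPKM with PMA and at 0.118 FPKM or below elsewhere. NR4A1 was nearest to TRAF4 (0.967), CCL3L3 (0.960) and the chemokine gene CCL4 (0.959). NR4A2 had the loosest likeness, to FAM188A (0.921), CMPK1 (0.916) and OPTN (0.907). The OPTN level was 22.3 to 43.9 FPKM in L428 and KM-H2 and 0.902 to 3.39 FPKM in Namalwa and untreated Reh.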

How the data were processed

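Total RNA of 5 cell lines, with Reh also after PMA, was depleted of ribosomal RNA and made into stranded libraries (TruSeq), 2 per condition. Per the submitters' processing notes, reads were aligned with TopHat2 2.0.11 to hg19 and quantified with Cuffnorm 2.2.1. The authors deposited FPKM values in 1 table of 26210 gene symbols. The annotation, strand setting and scaling method were not given in the sources used here. Total read counts were not used here, and depth was estimated from the steps of low FPKM values, which leaves counting error undefined, so no intervals on counts are given.

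Columns were assigned to conditions by the line and treatment in their names. The numbers 0 and 1 ending them could not be tied to the replicate numbers of the labels. Values were tested as log2(FPKM + 1), a scale that understates changes of low genes, for genes at 1 FPKM or more in at least 2 libraries. limma 3.58.1 (R 4.3.3) fitted the 6 condition means over all 12 libraries, with a trended prior and Benjamini-Hochberg adjustment over 14679 genes in each of 15 comparisons, and calls needed an adjusted p under 0.05. The fit was tested on simulated data with known differences. The 5 untreated lines were also compared as units with an exact permutation test. Alternatives were a pseudocount of 0.1, no filter, quantile normalization, no trend, a minimum difference of 1, the 4 Reh libraries alone, leaving out each library, and, chosen after seeing the data, the column number as a replicate block.

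The members and the gene lists were chosen with earlier results of these data known. Named genes were all members, up to 4 called genes per list with the largest PMA difference, genes a result turned on, and the 3 genes most like each tested member. Of the genes this rule names, 1 EGR target and 1 of the genes most like EGR1 are not reported here by name. The EGR target was called lower with PMA and is included in the counts. RXRA, EGR4, and the NAB and ID3 values in the cHL lines were chosen after their values were seen. Gene positions came from GENCODE v44 lifted to GRCh37, the same assembly as hg19, and promoter windows from RefSeq, matched to GRCh37. NR4A2 and EGR3 windows were not used here.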

Additional observations from a re-analysis of the deposited data

How the results depend on the processing

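The 4 members called higher with PMA kept their calls under every alternative in which they were tested, with differences of 4.62 to 6.30 outside the pseudocount of 0.1 and adjusted p-values of 0.0019 or below. EGR3 failed the filter without either treated library, which left 3 called members, and no difference changed sign past the threshold. The number of members called elsewhere depended on the processing. With a pseudocount of 0.1 it was 2 for L1236 minus Reh and 3 for L1236 minus Namalwa. Without the filter it was 2 for L428 minus Namalwa. With quantile normalization it was 1 for L428 minus Reh, 0 for KM-H2 minus Reh, 2 for L428 minus Namalwa, 1 for L1236 minus Namalwa and 1 for KM-H2 minus Namalwa. With a required difference of at least 1 it was 1 for L428 minus Reh, 0 for KM-H2 minus Reh, 2 for L428 minus Namalwa, 1 for L1236 minus Namalwa, 1 for KM-H2 minus Namalwa, 0 for KM-H2 minus L1236 and 1 for L428 minus L1236, since differences under 1 no longer counted. Leaving out 1 library gave 1 to 2 members for L428 minus Reh, 0 to 2 for KM-H2 minus Reh, 2 to 3 for L428 minus Namalwa, 0 to 2 for L1236 minus Namalwa, 0 to 2 for KM-H2 minus Namalwa, 0 to 1 for KM-H2 minus L1236, 1 to 2 for KM-H2 minus L428 and 1 to 2 for L428 minus L1236. The number of all genes called then ranged from 2241 to 5097 for PMA-treated Reh minus Reh (lowest without PMA-treated Reh library 0), from 2223 to 3956 for Namalwa minus Reh (lowest without Reh library 0) and from 2758 to 4900 for L428 minus L1236 (lowest without L1236 library 0). Where a condition kept 1 library, it was assumed to vary like the others. No trend changed none of these calls. The replicate numbers of the labels (rep1, rep2) could not be tied to columns ending in 0 and 1. With the column number as a replicate block, chosen after seeing the data, no call of a member changed and 5115 genes were called for PMA-treated Reh minus Reh. Libraries with the same number deviated together with r over 0.1 in 6 of 15 condition pairs (-0.04 to 0.68). Every pair of cHL lines was among them, with 0.68 for L428 and L1236, 0.43 for L1236 and KM-H2 and 0.30 for L428 and KM-H2. Reh and Namalwa had 0.36. No label says what the number marks, so it entered only as this alternative. Levels below about 1 FPKM rest on few fragments in the shallower libraries, which limits EGR1, EGR2, EGR3, NR4A2 and NR4A3 in most untreated libraries. The same holds for NR4A1 in Reh, L428 and KM-H2 library 0, and for NR4A2 and NR4A3 with PMA.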
